A study of Mus musculus with 2207 samples.

Results

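The GLP/G9a complex genes described here are *Ehmt1*, which encodes GLP, *Ehmt2*, which encodes G9a, and the genes of 3 proteins known to work with these enzymes, *Wiz*, *Zfp644* and *Cdyl*. They were chosen by gene symbol and are 5 of the 52636 genes in the deposited expression values. GLP and G9a are related SET domain methyltransferases that pair with each other and place mono- and dimethylation on lysine 9 of histone H3 (H3K9me2), a mark of silent chromatin. WIZ and ZFP644 are zinc finger proteins that bind the pair and help bring it to its targets, and CDYL is a chromodomain protein that binds methylated H3K9 and links the enzymes to repressive partners. In people, loss of a working copy of *EHMT1* causes Kleefstra syndrome, a disorder with intellectual disability and autistic features, and *Ehmt1*Δ/+ mice are its model.

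RNA of single nuclei from the frontal cortex was read with RamDA-seq, a method that primes total RNA rather than poly(A) tails alone, in male C57BL/6 mice at 14 weeks of age. From 3 weeks of age all mice, controls included, had been given 2 doses of tamoxifen of 100 mg/kg. The study's methods put a week between the doses. The nuclei came in 6 pools of 3 mice each: wild type (*Ehmt1*+/+) and *Ehmt1*Δ/+ nuclei sorted into 96-well plates, and 4 pools sorted into 384-well plates. By the labels, the 384-well wild type and *Ehmt1*Δ/+ pools carried the inducible *Ehmt1* transgene (iTg) without CamKII-CreER, and the remaining pools, called iTg and *Ehmt1*Δ/+; iTg, carried the transgene with CamKII-CreER. The transgene sits at Rosa26 and makes FLAG-tagged GLP after Cre recombination, and CamKII-CreER is driven in postnatal forebrain neurons, so glia of these pools are not its target. The labels do not say which mouse a nucleus came from. The pool therefore served as the replicate, and every p-value below measures the spread between pools only. For each gene, limma moderates this spread with that of all genes tested. Each genotype in each plate format was 1 pool. In the sample titles the 384-well wild type pool has a plate code of its own, and the other 384-well pools share another. Differences from the 384-well wild type pool therefore cannot be told apart from a difference between these codes.

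The values covered 2207 nuclei, 730 from 96-well and 1477 from 384-well plates, that the labels call neurons (1664), oligodendrocytes (397) or, for the rest, microglia. Median read totals of the pools were 323273 to 397880 reads per neuron in either format, whereas glia had 441701 to 510640 in 96-well and 39940 to 54877 in 384-well plates. Summed neuron markers reached 266.6 to 306.7 RPKM (reads per kilobase of gene length, scaled to the depth of each nucleus) in neurons, microglia markers 1434 to 2445 RPKM in microglia and oligodendrocyte markers 2553 to 4009 RPKM in oligodendrocytes, so the labels matched their defining genes. In glia the summed neuron markers were 60.9 RPKM in microglia and 51.4 RPKM in oligodendrocytes of the 96-well wild type pool, against 3.17 to 14.0 RPKM in the other pools, and their part in the glial values below was not tested. Neurons with a higher level of *Slc17a7*, a vesicular glutamate transporter, than of *Gad1*, an enzyme of GABA synthesis, were taken as excitatory (1324) and the converse as inhibitory (333), and 7 neurons stayed unassigned.

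The 5 genes differ in place, length and base composition. In the mm10 build, *Ehmt1* (ENSMUSG00000036893.17) lies at chr2:24789928-24919614 on the minus strand, *Ehmt2* (ENSMUSG00000013787.15) at chr17:34898469-34914052 on the plus strand, *Wiz* (ENSMUSG00000024050.15) at chr17:32354055-32389439 on the minus strand, *Zfp644* (ENSMUSG00000049606.16) at chr5:106616739-106697287 on the minus strand and *Cdyl* (ENSMUSG00000059288.14) at chr13:35659833-35874063 on the plus strand. The G and C content of their annotated transcripts was 59.8% for *Ehmt2*, 58.1% for *Wiz*, 51.7% for *Ehmt1*, 48.7% for *Cdyl* and 42.5% for *Zfp644*. The plate formats differed most for genes at either end of this order, as given below. The ends are shown by a stretch of 120 bases of the coding sequence of *Ehmt2*, the enzyme gene richest in G and C, and of *Zfp644*, the partner gene poorest in them, each chosen by a script to match the G and C content of the whole coding sequence, written 5′ to 3′ along the transcript from the mm10 reference with the GENCODE annotation, and with every G and C in capitals. The *Ehmt2* stretch (transcript ENSMUST00000013931.11, chr17:34899662-34899781, plus strand) has 74 G or C of 120 bases, and the *Zfp644* stretch (transcript ENSMUST00000112698.7, chr5:106638386-106638505, minus strand) has 52.
Ehmt2: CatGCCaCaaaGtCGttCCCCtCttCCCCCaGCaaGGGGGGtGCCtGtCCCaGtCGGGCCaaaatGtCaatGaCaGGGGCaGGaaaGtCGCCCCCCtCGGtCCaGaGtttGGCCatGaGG
Zfp644: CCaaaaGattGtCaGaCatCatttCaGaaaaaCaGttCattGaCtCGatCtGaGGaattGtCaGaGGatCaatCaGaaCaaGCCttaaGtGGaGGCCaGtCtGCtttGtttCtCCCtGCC

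The first comparison was of *Ehmt1* itself, the gene that the Δ allele disrupts and the transgene supplies. In neurons, the mean level of *Ehmt1* was 18.7 RPKM in wild type and 31.2 RPKM in *Ehmt1*Δ/+ in the 96-well format. In the 384-well format it was 19.5 RPKM in wild type and 31.7 RPKM in *Ehmt1*Δ/+, and 20.7 RPKM in iTg and 33.9 RPKM in *Ehmt1*Δ/+; iTg. The 3 pools labelled Δ/+ were thus all above the 3 others, at 32.3 ± 1.45 RPKM (SD, n = 3 pools) against 19.6 ± 0.991 RPKM (SD, n = 3 pools), and the groups did not overlap. The ratio of Δ/+ to its matched control was 1.67 in the 96-well pair, 1.62 in the 384-well pair and 1.64 in the pair with CamKII-CreER.

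A higher *Ehmt1* value in the pools labelled Δ/+ goes against the lower gene dose that the label names. The value sums reads over all exons of the gene, so it does not tell the transcript of the intact allele from that of the Δ allele or of the transgene, and it is no measure of GLP protein. Among the 24413 genes tested in neurons, 426 (1.74%) had all 3 Δ/+ pools above all 3 others, and *Ehmt1* was the only member among them. An exact permutation test of 3 pools against 3 cannot give a two-sided p below 0.1.

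In the fit of *Ehmt1*Δ/+ against wild type over the 4 pools without CamKII-CreER, with plate format as a block, the log2 difference of *Ehmt1* in neurons was 0.71 (SE 0.10). Its p of 0.00327 by limma became an adjusted p of 0.461 over the 23853 genes, so the difference did not pass. Of all genes, 0 were called in this comparison (0% of those tested), and 2428 had an unadjusted limma p under 0.05. With 1 residual degree of freedom the fit had little power. Its SE then rests mostly on the spread of all genes, and that of the 5 members ran only from 0.1012 to 0.1021. Over all 6 pools, with terms for plate format, Δ and CamKII-CreER, the Δ term of *Ehmt1* was 0.71 (SE 0.13, limma p = 0.00278, adjusted p = 0.796), with 0 of 24413 genes called (0%) and 1238 at an unadjusted limma p under 0.05.

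The difference was spread over the neurons rather than carried by a few nuclei. Median *Ehmt1* levels per neuron were 18.1 and 30.7 RPKM in wild type and *Ehmt1*Δ/+ of the 96-well format, 18.6 and 30.9 RPKM in those of the 384-well format, and 19 and 33.2 RPKM in iTg and *Ehmt1*Δ/+; iTg. The share of Δ/+ neurons above the median of their matched control was 95.8% in the 96-well pair, 87.6% in the 384-well pair and 95% in the pair with CamKII-CreER. The median neuron held 51 to 63 *Ehmt1* reads in the pools without Δ and 85 to 88.5 in the pools with it. Within the 96-well pools, mean *Ehmt1* in neurons was 18.6 to 19 RPKM over the 4 plate codes of wild type and 30.3 to 32.5 RPKM over the 4 of *Ehmt1*Δ/+. On the 3 plate codes that both genotypes share, the ratio was 1.61, 1.63 and 1.75. A shared code need not be a shared plate. Code 005 alone held 65 wild type and 71 *Ehmt1*Δ/+ neurons, more than the wells of a 96-well plate. These ratios therefore need not remove differences between plates.

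Excitatory and inhibitory neurons showed the same order of pools for *Ehmt1*. In excitatory neurons *Ehmt1* was at 17.8, 18.7 and 20.3 RPKM in the 96-well wild type, 384-well wild type and iTg pools, and at 30.5, 30.6 and 34 RPKM in their Δ/+ counterparts. In inhibitory neurons *Ehmt1* was at 21.6, 21.9 and 22 RPKM without Δ and at 34.3, 36.9 and 33.5 RPKM with it. The groups of pools did not overlap in either class. Of all genes tested, 388 of 24352 (1.59%) in excitatory and 476 of 24142 (1.97%) in inhibitory neurons had this order.

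In oligodendrocytes *Ehmt1* was at 17.5, 21.8 and 20.9 RPKM in the pools without Δ and at 25.8, 32.6 and 28.3 RPKM in the pools with it, again without overlap; 352 of 13957 genes (2.52%) had this order there. In microglia the groups overlapped: *Ehmt1* was at 16.8, 15.7 and 23.8 RPKM without Δ, as against 25.1, 20.8 and 26.4 RPKM with it, and the iTg pool without Δ was above the 384-well *Ehmt1*Δ/+ pool. The ratios of Δ/+ to matched control were 1.48, 1.49 and 1.36 in oligodendrocytes and 1.5, 1.33 and 1.11 in microglia. Microglia numbered 16 to 36 nuclei a pool. Whether the ratios differ between cell types was not tested.

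In neurons, the pools labelled with CamKII-CreER differed little in *Ehmt1* RPKM from those labelled without it. The study's legends describe all 4 genotypes of the 384-well format as mice with CamKII-CreER, against the labels, so which element these ratios compare is uncertain. For protein, the study reports FLAG-tagged GLP in most cortical neurons after induction, with more total GLP than in wild type neurons. It also reports less GLP in *Ehmt1*Δ/+ than in wild type brain. RNA ratios do not measure either. The ratio of the pool with CamKII-CreER to the pool without it was 1.06 on the wild type background and 1.07 on the Δ/+ background, and the fitted iTg term in neurons was 0.09 (SE 0.16, adjusted limma p = 0.988). For that term 0 genes were called by limma, and 711 had an unadjusted p under 0.05. In microglia the same ratios were 1.52 and 1.27, and in oligodendrocytes 0.958 and 0.870, each from 1 pool against 1 pool with no test. The product term of Δ and iTg for *Ehmt1* in neurons was 0.00 to 2 decimals, beside an all-gene median of 0.28.

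**Figure D1:**
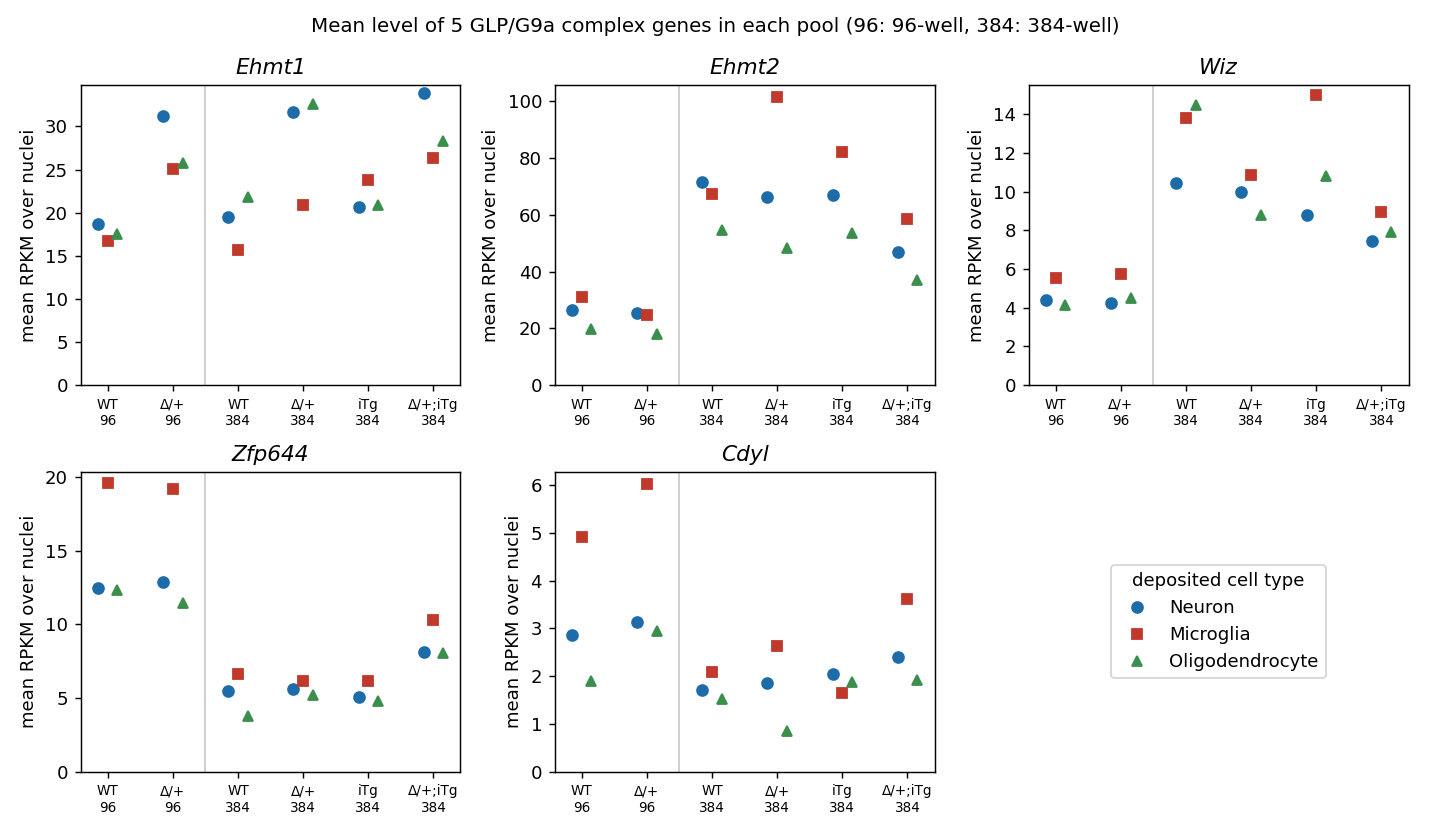
Mean RPKM over nuclei (vertical axis) of each member in the 6 pools (horizontal axis; 96 and 384 name the plate format, split by the grey line), with 1 line or marker colour per deposited cell type. *Ehmt1* alternates between about 19.6 RPKM in neurons of pools without Δ and 32.3 RPKM in pools with it, whereas *Ehmt2* and *Wiz* step up, and *Zfp644* and *Cdyl* step down, from the 96-well to the 384-well pools.

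*Ehmt2*, the gene of the partner enzyme G9a, did not follow this pattern. In neurons its mean was 26.6 RPKM in wild type and 25.5 RPKM in *Ehmt1*Δ/+ of the 96-well format, and 71.4 and 66.2 RPKM in those of the 384-well format. The iTg pool had 66.8 RPKM and the *Ehmt1*Δ/+; iTg pool 47 RPKM. The pools ranked first by plate format, and over all 6 the groups overlapped. Within each matched pair *Ehmt2* was lower in the Δ/+ pool, with ratios of 0.962, 0.927 and 0.703. *Ehmt1*Δ/+ against wild type gave a log2 difference of -0.08, and the Δ term over all 6 pools was -0.22 (SE 0.16).

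*Wiz*, the zinc finger partner of both enzymes, had the same layout. Its neuronal means were 4.38 and 4.27 RPKM in wild type and *Ehmt1*Δ/+ of the 96-well format, 10.4 and 10 RPKM in those of the 384-well format, and 8.77 and 7.44 RPKM in iTg and *Ehmt1*Δ/+; iTg. Its log2 difference between *Ehmt1*Δ/+ and wild type was -0.05. The long noncoding gene *Gm26858* overlaps *Wiz* on the opposite strand and rose across formats alike, from 3.99 and 3.47 RPKM in the 96-well to 6.19 to 8.31 RPKM in the 384-well neurons; of the *Wiz* values, 58.7% were whole reads and 97.6% were whole or midway between whole reads (tolerance 0.01 reads), at a gene length that was itself fitted to these values because the reference holds another version of the gene. Without strand, *Wiz* reads in the overlap cannot be told apart from those of *Gm26858*.

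*Zfp644*, the other zinc finger partner, ran the opposite way. In neurons it was at 12.5 and 12.9 RPKM in wild type and *Ehmt1*Δ/+ of the 96-well format, at 5.49 and 5.60 RPKM in those of the 384-well format, at 5.11 RPKM in iTg and at 8.11 RPKM in *Ehmt1*Δ/+; iTg. Its log2 difference between *Ehmt1*Δ/+ and wild type was 0.04. *Zfp644* overlaps *Gm28039* and *Gm43421* on its own strand. Of the *Zfp644* values, 38.1% were whole reads, so its level is less certain than those of the enzymes.

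*Cdyl*, the chromodomain reader, was the lowest member. Its neuronal means were 2.86 and 3.13 RPKM in wild type and *Ehmt1*Δ/+ of the 96-well format, 1.72 and 1.85 RPKM in those of the 384-well format, and 2.04 and 2.39 RPKM in iTg and *Ehmt1*Δ/+; iTg. *Cdyl* was a little higher in the Δ/+ pool of each pair, and the log2 difference of 0.11 did not pass limma over the 4 pools. On the shared 96-well plate codes, the ratios of *Ehmt1*Δ/+ to wild type for the members other than *Ehmt1* ran from 0.909 to 1.11. The Δ terms over all 6 pools in neurons were -0.11 for *Wiz*, 0.24 for *Zfp644* and 0.15 for *Cdyl*, and no member passed in any genotype comparison.

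**Figure D2:**
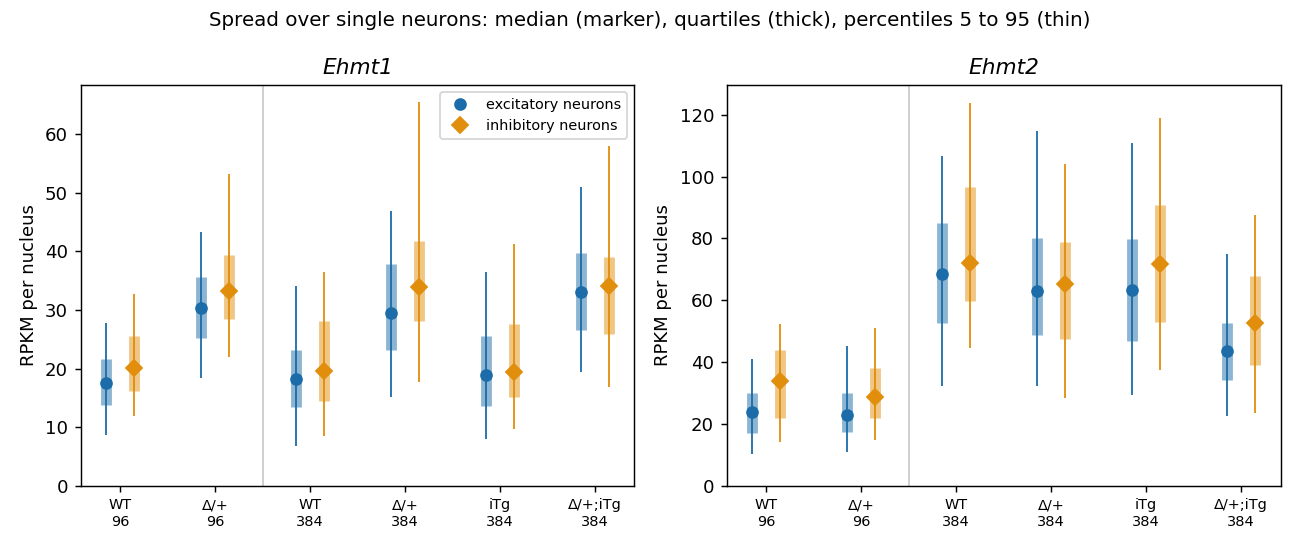
RPKM per single neuron (vertical axis) of *Ehmt1* and *Ehmt2* in the 6 pools (horizontal axis), with excitatory and inhibitory neurons drawn apart. Shown are the median (marker), the quartiles (thick line) and the percentiles 5 to 95 (thin line). In excitatory neurons the medians of *Ehmt1* lie at 17.5 to 18.8 RPKM without Δ and at 29.5 to 33.1 RPKM with it. In inhibitory neurons the medians with Δ also lie above all those without it.

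Plate format moved the partner genes far more than genotype did. The ratio of the 384-well to the 96-well wild type pool in neurons was 2.69 for *Ehmt2* and 2.38 for *Wiz*, 0.440 for *Zfp644*, 0.602 for *Cdyl* and 1.043 for *Ehmt1*. The same ratios between the *Ehmt1*Δ/+ pools were 2.59, 2.34, 0.435, 0.590 and 1.02 in that order. These ratios ran with the G and C content of the genes shown above. Over all genes, the median log2 ratio of the wild type pools went from -1.32 for transcripts of 36 to 40% G and C to 0.78 for those of 60 to 64%. Genes within 2 percentage points of *Ehmt2* had a median of 0.78, beside 1.42 for *Ehmt2*; those near *Wiz* had 0.68, beside 1.23 for *Wiz*. Genes near *Zfp644* had -0.95, beside -1.17, those near *Cdyl* -0.35, beside -0.70, and those near *Ehmt1* -0.03, beside 0.06. The formats also differ in run and, by the labels, in the transgene, and which of these sets the ratios was not tested.

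The *Ehmt1*Δ/+; iTg pool lay between the formats in this respect. Against iTg, its neuronal *Ehmt2* was 0.703-fold and its *Zfp644* 1.59-fold, while genes of like G and C content had median log2 ratios of -0.25 and 0.54, beside -0.51 for *Ehmt2* and 0.66 for *Zfp644*. *Wiz* was 0.849-fold and *Cdyl* 1.18-fold. Over all genes this pair went from a median log2 ratio of 0.78 at 36 to 40% G and C to -0.27 at 60 to 64%. The product term of Δ and iTg in neurons was 0.62 for *Zfp644* (limma p = 0.0301, adjusted p = 0.151) and -0.43 for *Ehmt2*, beside 6669 genes with an unadjusted p under 0.05, 0 called by limma, and an all-gene median of 0.28. The *Ehmt1* ratio of this pair, 1.64, was at the percentile 80 of all genes, against 98.5 and 98.7 in the other pairs, with an all-gene median log2 ratio of 0.22 in this pair.

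**Figure D3:**
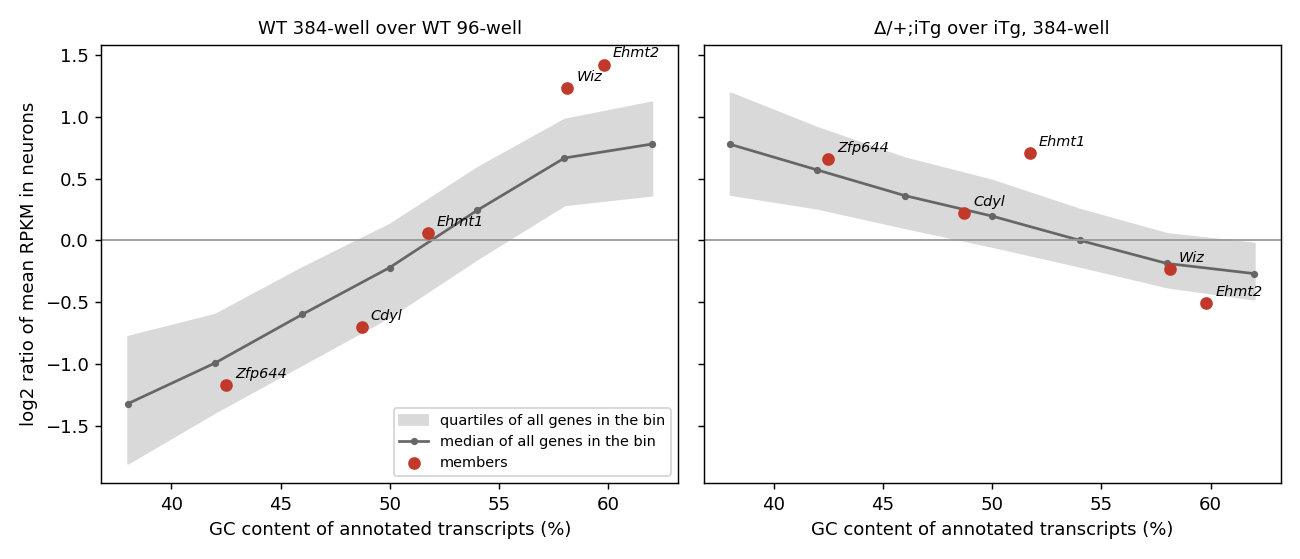
Log2 ratio of mean RPKM in neurons (vertical axis) against the G and C content of annotated transcripts (horizontal axis, %), with the median of all genes in each bin and the 5 members marked, for each pair of pools named in the panel titles. Between the formats the bin medians climb from -1.32 to 0.78, with *Zfp644* near the low end and *Ehmt2* and *Wiz* near the high end.

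Because RPKM is per length, the levels of the members can be set against each other, but RPKM does not correct for G and C content. A bias shared by all 6 pools does not enter the spread between them. The order tests below therefore rank RPKM values and cannot decide which transcript is more abundant. In neurons the mean over the 6 pools was 50.6 ± 20.8 RPKM (SD, n = 6 pools) for *Ehmt2*, 8.28 ± 3.57 RPKM for *Zfp644* and 2.33 ± 0.569 RPKM for *Cdyl*. The 6-pool SD of these genes holds the step between formats, and that of *Ehmt1* its step between genotypes. Both enzyme genes were above *Wiz*, *Zfp644* and *Cdyl* in every pool of neurons, and *Cdyl* was below all others. The *Ehmt1* to *Ehmt2* ratio was below 1 in 5 of 6 pools, at 0.705, 0.273, 0.478, 0.310 and 0.722, and was 1.22 in the 96-well *Ehmt1*Δ/+ pool. *Wiz* and *Zfp644* traded places between formats, with *Wiz* higher in 3 of 6 pools.

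Of the 30 gene pairs compared over the 3 cell types, 22 had the same order in all 6 pools: 8 in neurons, 6 in microglia and 8 in oligodendrocytes. For each of these the exact two-sided sign-flip permutation test gave p = 0.03125, the smallest that 6 pools allow (adjusted p = 0.0426 over the 30). *Ehmt1* and *Ehmt2* in neurons did not pass (exact permutation p = 0.0625, adjusted p = 0.0721), nor did *Wiz* and *Zfp644* in any cell type. Per nucleus, *Ehmt1* exceeded *Ehmt2* in 28.1% of 96-well wild type neurons and in 74% of 96-well *Ehmt1*Δ/+ neurons. The shares in 384-well neurons were 1.75% in wild type, 7.52% in *Ehmt1*Δ/+, 2.91% in iTg and 26.4% in *Ehmt1*Δ/+; iTg. The share was higher in the Δ/+ pool of each pair, and both the *Ehmt1* step and the format step of *Ehmt2* enter it.

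Most neurons held reads of 4 of the members. The share of neurons above 0 was 99.6 to 100% for *Ehmt1*, 100% for *Ehmt2*, 97.1 to 98.3% for *Wiz* and 98.5 to 100% for *Zfp644* over the 6 pools. *Cdyl* was above 0 in 68.8% of 96-well wild type neurons ( exact 95% interval 62.7 to 74.4%, counting error only), in 70.9% of 96-well *Ehmt1*Δ/+ neurons, and in 45.1 to 58.2% of neurons in the 384-well pools. All 5 genes were above 0 in 67.6 and 68.7% of neurons in the 96-well pools and in 42.9 to 57.1% in the 384-well pools, and *Cdyl* was most often the missing one.

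In glia the *Cdyl* shares were lower where reads were fewer. *Cdyl* was above 0 in 58.3 and 65.6% of microglia in the 96-well pools and in 12.5 to 30.4% in the 384-well pools, and in 37 and 38% against 13 to 16.9% of oligodendrocytes. After thinning to 389204 reads a nucleus in 96-well and 30790 in 384-well pools, *Cdyl* was above 0 in 65.7 and 63.5% of 96-well neurons, 58 and 61.4% of microglia and 41.8 and 35.6% of oligodendrocytes. The thinned 384-well shares were 17 to 22.2% in neurons, 10.6 to 23.2% in microglia and 10 to 13.1% in oligodendrocytes. The thinned 96-well shares rest on 51 and 61 neurons, those with enough reads, and the 384-well ones on 14 to 20 microglia a pool. At matched depth microglia were below neurons in 4 of 6 pools and above them in the 384-well *Ehmt1*Δ/+ and *Ehmt1*Δ/+; iTg pools, and oligodendrocytes had the lowest share in the 96-well format.

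Cell types were compared next, with pool as a block and all 22884 genes tested. Between glia, *Ehmt2*, *Zfp644* and *Cdyl* were higher in microglia than in oligodendrocytes. In microglia of the 6 pools (96-well wild type and *Ehmt1*Δ/+, then 384-well wild type, *Ehmt1*Δ/+, iTg and *Ehmt1*Δ/+; iTg) *Ehmt2* had means of 31.1, 24.7, 67.3, 101.6, 82 and 58.7 RPKM, and oligodendrocytes had 19.7, 18.0, 54.8, 48.3, 53.8 and 37 RPKM. Microglia were higher in every pool, by 0.62 on the log2 scale (SE 0.14, adjusted limma p = 0.00342). For *Zfp644* the microglia of these pools had 19.6, 19.2, 6.65, 6.19, 6.18 and 10.3 RPKM and the oligodendrocytes 12.4, 11.5, 3.81, 5.20, 4.82 and 8.05 RPKM, again higher in every pool (log2 0.52, SE 0.14, adjusted limma p = 0.00949).

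For *Cdyl* microglia had 4.90, 6.02, 2.09, 2.64, 1.65 and 3.61 RPKM and oligodendrocytes 1.89, 2.95, 1.51, 0.862, 1.87 and 1.93 RPKM. It was higher in microglia in 5 of 6 pools, with iTg the exception (log2 0.83, SE 0.22, adjusted limma p = 0.00693). *Wiz* (log2 0.27, adjusted p = 0.155) and *Ehmt1* (log2 -0.19, adjusted p = 0.362) did not pass by limma. Limma called 44.1% of all genes in this comparison, so 3 of 5 is not far from the background, and the all-gene median was -0.09. These 3 calls held when any single pool was left out. The 96-well pools alone kept the calls of *Zfp644* and *Cdyl* but not that of *Ehmt2* (adjusted limma p = 0.0958), and the 384-well pools alone kept that of *Ehmt2* but not those of *Zfp644* (0.109) and *Cdyl* (0.11).

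Neurons against glia gave fewer calls. *Wiz* (log2 -0.38, SE 0.15, adjusted limma p = 0.0348) and *Zfp644* (log2 -0.37, SE 0.14, adjusted limma p = 0.0356) were lower in neurons than in microglia. *Ehmt1* (0.26, adjusted p = 0.161), *Ehmt2* (-0.22, adjusted p = 0.201) and *Cdyl* (-0.45, adjusted p = 0.0824) did not pass by limma. *Ehmt2* was higher in neurons than in oligodendrocytes (log2 0.40, SE 0.14, adjusted limma p = 0.0331), and the other members did not pass, from -0.11 for *Wiz* to 0.38 for *Cdyl*. Limma called 64.3% of all genes between neurons and microglia and 52.2% between neurons and oligodendrocytes, with all-gene medians of 0.79 and 0.57, beside 2 and 1 of the 5 members. With medians so far from 0 the direction against glia depends on the scale: centring each library set on its median gene turned *Ehmt1* to -0.64 and lowered *Wiz* to -1.28 against microglia, and turned *Ehmt2* to -0.45 against oligodendrocytes. With the mean of log2 values the 2 members called against microglia turned the other way, to 1.30 for *Wiz* and 0.72 for *Zfp644*, both past the threshold of limma. All 3 calls were lost without either 96-well pool, without iTg or without *Ehmt1*Δ/+; iTg (adjusted limma p of 0.0566 to 0.118). Without the 384-well wild type pool that of *Zfp644* was kept and the other two were not, and without the 384-well *Ehmt1*Δ/+ pool all were kept.

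Within neurons, *Cdyl* was higher and *Ehmt2* lower in excitatory than in inhibitory cells. *Cdyl* was at 3.13, 3.26, 1.90, 1.99, 2.36 and 2.41 RPKM in excitatory and at 2.02, 2.62, 1.11, 1.16, 0.784 and 2.32 RPKM in inhibitory neurons of the pools in the order given. Excitatory neurons were higher in each of the 6 pools (log2 0.65, SE 0.17, adjusted limma p = 0.020), by the least in *Ehmt1*Δ/+; iTg. *Ehmt2* was at 24.3, 24.4, 68.9, 66.3, 65 and 45.4 RPKM in excitatory and at 33.5, 30.6, 78.3, 66, 74.5 and 53.9 RPKM in inhibitory neurons. Inhibitory neurons were higher in 5 of 6 pools, and the 384-well *Ehmt1*Δ/+ pool had near equal levels (log2 -0.24, SE 0.08, adjusted limma p = 0.0426). *Wiz* (-0.22) and *Ehmt1* (-0.17) both had an adjusted limma p of 0.0781, and *Zfp644* was level (-0.02, adjusted p = 0.868).

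Limma called 43.3% of the 22752 genes tested between the neuron classes, so 2 of 5 members is the background share. The call of *Cdyl* was lost without the 384-well wild type pool (adjusted p = 0.0540) and without the 384-well *Ehmt1*Δ/+ pool (0.0508), and that of *Ehmt2* without any pool except the latter (0.0763 to 0.116). With only neurons that had reads of either *Slc17a7* or *Gad1* and not both, the adjusted p was 0.104 for *Cdyl* and 0.20 for *Ehmt2*. In the 96-well *Ehmt1*Δ/+ pool the inhibitory neurons also held summed oligodendrocyte precursor markers of 27.9 RPKM, against at most 0.232 RPKM in inhibitory neurons of the other pools. Summed astrocyte markers were 27.8 to 66.5 RPKM in excitatory and 2.79 to 13.2 RPKM in inhibitory neurons over the pools, higher in excitatory neurons of every pool. The part of either marker set in these differences was not tested.

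**Figure D4:**
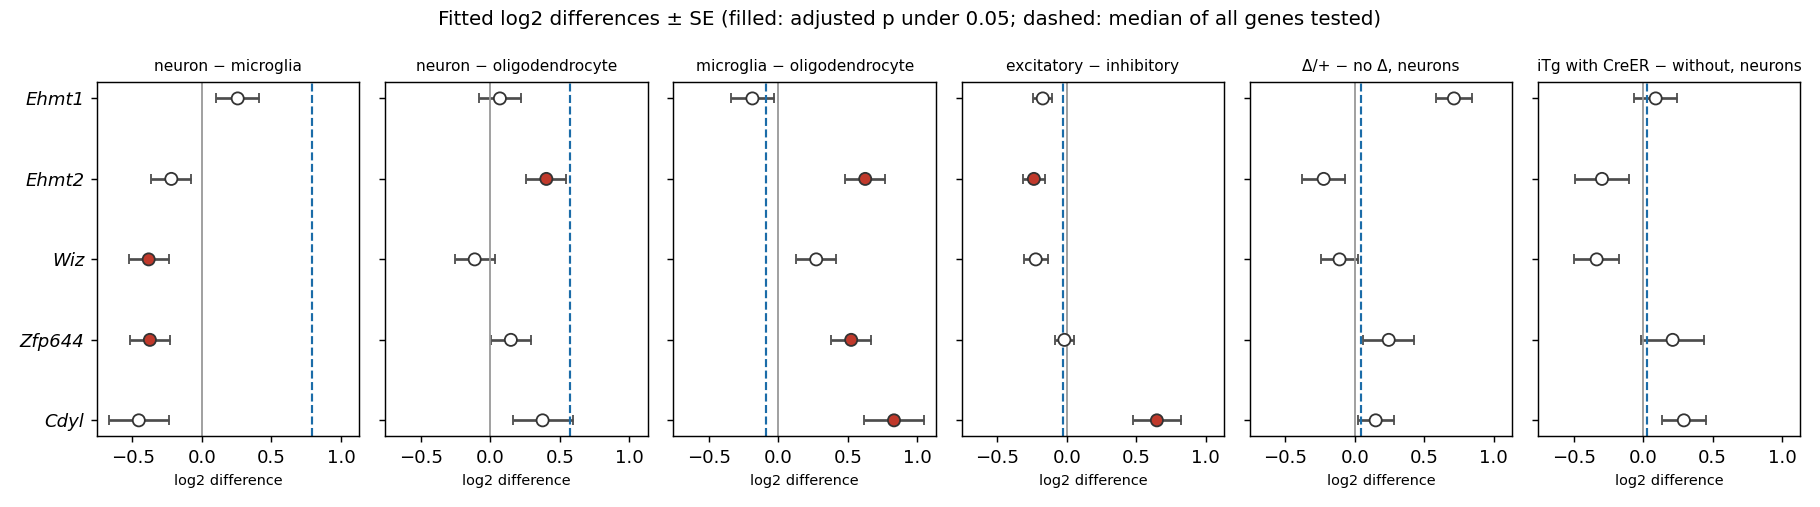
Fitted log2 difference ± SE (horizontal axis) of each member (vertical axis) in the comparisons named above the panels; filled markers have an adjusted p under 0.05 by limma, and the dashed line is the median of all genes tested. *Ehmt2*, *Zfp644* and *Cdyl* lie to the right for microglia against oligodendrocytes, and *Ehmt1* at 0.71 lies apart from the other members for *Ehmt1*Δ/+ against wild type without passing.

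Across the 18 means of pool and cell type, the members fell into sets by plate format. Pearson's r of log2 levels was 0.89 between *Ehmt2* and *Wiz* and 0.82 between *Zfp644* and *Cdyl*, but -0.75 between *Ehmt2* and *Zfp644* and -0.80 between *Wiz* and *Zfp644*. *Ehmt1* had r of -0.15 to -0.04 with the others. These means share pools, plate format and the step with G and C content, and are a description. Over single neurons within a pool, r between members ran from -0.12 to 0.20, too weak to be read as a finding. *Cdyl* was also at 0 in many of these neurons.

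The genes most like each member over the 18 means, among 13526 compared, were of that kind too. For *Ehmt2* they were *Fastk*, *Bag6* and *Skiv2l* (r = 0.96 each), of which *Bag6* and *Skiv2l* lie in the same class III region of the major histocompatibility complex as *Ehmt2*. For *Wiz* they were *Kmt2b* (0.97), *Snhg20* (0.95) and *Kmt2d* (0.95), where KMT2B and KMT2D are H3K4 methyltransferases. For *Zfp644* they were *Trim44* (0.98), *Sept2* (0.97) and *Spopl* (0.97), and for *Cdyl* they were *Irf2* (0.96), *Cdc26* (0.94) and *Ccdc82* (0.92). *Ehmt1* had no close match: *Iqcc* came first with r = 0.64, then *Thap4* (0.62) and *Celsr1* (0.58).

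Other genes that act with the enzymes were read from a list of 20 partners and readers, of which 19 were tested by cell type. In microglia against oligodendrocytes, 6 of these were higher and 3 lower in microglia (median 0.19, all genes -0.09), that is 9 of 19 called beside 44.1% of all genes. The higher ones were *Cdyl2*, a paralog of *Cdyl*, *Rest* and *Rcor1*, of the REST silencing complex, *Ctbp2*, a corepressor, *Dnmt3a*, a DNA methyltransferase, and *Zfp518b*. Those lower were *Zfp462*, *Cbx3*, of HP1, and *Ezh2*, the H3K27 methyltransferase. *Ctbp2* differed by 5.26 and *Zfp462* by -7.01 on the log2 scale. None of these 9 turned direction with centring on the median gene, centring by G and C content or the mean of log2 values. *Rest*, which silences neuronal genes outside neurons, was lower in neurons than in microglia by -3.37 (SE 0.25), while *Zfp462* was higher by 6.54 (SE 0.45).

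Against microglia, 4 of the 19 partners were higher in neurons (*Cbx5*, *Hdac2*, *Mphosph8* and *Zfp462*) and 8 lower (*Cbx1*, *Ctbp1*, *Ctbp2*, *Dnmt3a*, *Eed*, *Hdac1*, *Rest* and *Zfp518a*), with a median of 0.12 beside 0.79 for all genes. That is 12 of 19 called, beside 64.3% of all genes. Of these 12, *Hdac2* turned direction with centring by G and C content, and *Cbx1*, *Ctbp1*, *Dnmt3a*, *Eed*, *Hdac1* and *Zfp518a* turned with the mean of log2 values. Between neuron classes, *Cdyl2* (log2 1.16, SE 0.13, adjusted limma p = 0.000391) and *Rcor1* were higher in excitatory cells, so *Cdyl* and its paralog *Cdyl2* were called in the same direction. Lower in excitatory cells were *Ctbp2*, *Dnmt1*, *Ezh2*, *Hdac1* and *Zfp518b* (median of the list -0.02, all genes -0.02). Between the classes 7 of 19 partners were thus called, beside 43.3% of all genes.

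Of 5 other H3K9 methyltransferase genes, 1 was called between the neuron classes, where 43.3% of all genes were called. This was *Suv39h1*, a writer of H3K9me3, which was lower in excitatory cells by -0.72 on the log2 scale. In microglia against oligodendrocytes, where 44.1% of all genes were called, *Setdb1* and *Suv39h2* were higher and *Suv39h1* lower. Only *Prdm2* was called between neurons and microglia, lower in neurons, beside 64.3% of all genes. Against oligodendrocytes, beside 52.2% of all genes, 2 were higher in neurons (*Setdb1* and *Suv39h2*) and 3 lower (*Prdm2*, *Setdb2* and *Suv39h1*). There *Setdb1* turned direction with either centring and *Prdm2* with the mean of log2 values. Of 10 H3K9 demethylase genes, 3 were higher in excitatory cells (*Jmjd1c*, *Kdm3a* at 0.58 and *Kdm7a* at 0.57) and 3 lower (*Kdm4a*, *Phf2* and *Phf8*), beside 43.3% of all genes called in either direction. Against microglia, where 64.3% of all genes were called, 3 demethylase genes were higher in neurons (*Kdm1a*, *Kdm4b* and *Phf8*) and 6 lower (*Jmjd1c*, *Kdm3a*, *Kdm3b*, *Kdm4a*, *Kdm7a* and *Phf2*), where *Kdm1a*, *Kdm4b* and *Phf8* turned direction when centred on the median gene, as did *Kdm4a*, *Kdm7a* and *Phf2* with the mean of log2 values. Between neuron classes no called gene of the lists turned under these scalings. *Kdm4b*, a demethylase of H3K9me3, had 33.8 RPKM in neurons on average over pools, and *Setdb1* 22.6 RPKM. By limma no gene of these lists passed in any genotype comparison.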

How the data were processed

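Nuclei of 3 mice were pooled per genotype, sorted singly and sequenced by RamDA-seq. Per the study's methods and the submitters' processing notes, the authors trimmed reads with Fastq-mcf, aligned them to mm10 with HISAT2 2.0.4, and counted them per gene with featureCounts (Subread 1.5.0) on the Gencode annotation; the deposited values are RPKM, one table for each plate format, and no columns were left unused. The methods name default settings for featureCounts, which ignore strand and give whole reads, whereas many deposited values are not whole reads at the gene lengths used; how reads shared between genes entered the values is therefore uncertain. Nuclei were assigned to pools and cell types by their labels.

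Mean RPKM was taken per pool and cell type, and log2(mean + 0.1) was fitted with limma 3.58.1 (R 4.3.3). Genes were kept by the share of nuclei above 0, with a cutoff of 10%. For cell types and neuron classes, the highest type or class had to reach it in every pool. In the 4-pool fit all pools of either genotype had to reach it, and in the 6-pool fits any 3 pools. A gene could thus enter the genotype fits through the Δ/+ pools alone. Benjamini-Hochberg adjustment was used with a threshold of 0.05. Fold changes on this scale understate those of low genes. The comparisons were cell types and neuron classes (pool as block), *Ehmt1*Δ/+ against wild type in 4 pools (plate format as block), and Δ and iTg terms in 6 pools. Orders of members used exact sign-flip permutation tests. Intervals are exact (Clopper-Pearson) and cover counting error only. The script was tested on simulated data. Median reads per nucleus were 323273 to 397880 in neurons and 39940 to 510640 in glia, so low genes such as *Cdyl* are least precise in 384-well glia.

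Named genes are the 5 members, the 3 genes most correlated with each, members of 3 lists of partners, methyltransferases and demethylases that were called or had the highest neuronal means, and cell type markers. The members and lists were chosen with earlier results of these data known. Coding sequence was taken from the mm10 reference and GENCODE M21.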

Additional observations from a re-analysis of the deposited data

Results flagged for a closer look

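In wild type neurons of the 96-well format, mean *Ehmt1* on 1 of the 4 plate codes was 19.04 RPKM, apart from the other codes at 18.6 to 18.7 RPKM; its gap to the nearest was 0.835 of the whole range. Of 10 such groups of plate codes examined (5 genes in 2 pools) this was the 1 set apart, and chance sets apart about 1 in 20. The range is small beside the 30.3 to 32.5 RPKM of *Ehmt1*Δ/+ codes.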

How the results depend on the processing

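The count of members called of 5 between neurons and microglia was 2, and it was 5 after centring on the median gene, 4 with the mean of log2 values, 4 with centring within bins of G and C content (chosen after seeing the data), 1 with deeper nuclei, 1 in the 96-well pools alone, 0 in the 384-well pools alone and 0 to 2 leaving out each pool. Between neurons and oligodendrocytes it was 1, and under the same settings 3, 5 and 4, then 0 in either format alone and 0 to 1 leaving out each pool. Between microglia and oligodendrocytes it was 3, and 1 in the 384-well pools alone. Between neuron classes it was 2, and 1 without a filter on low values, 1 median-centred, 1 with the mean of log2 values, 1 centred by G and C content, 0 with neurons that had reads of either class marker and not both and 0 to 1 leaving out each pool.

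Directions also turned. Neurons minus microglia was -0.64 (median-centred) and -0.34 (centred by G and C content) for *Ehmt1*, and with the mean of log2 values 0.39 for *Ehmt2*, 1.30 for *Wiz*, 0.72 for *Zfp644* and 0.73 for *Cdyl*. Neurons minus oligodendrocytes, median-centred, was -0.79 for *Ehmt1*, -0.45 for *Ehmt2*, -0.71 for *Zfp644* and -0.48 for *Cdyl*; centred by G and C content it was -0.49, -0.60, -0.51 and -0.27 for these. For *Wiz* it was 1.66 with the mean of log2 values and 0.0025 in the 96-well pools alone. *Zfp644* between neuron classes, near 0, was 0.021 median-centred, 0.045 with the mean of log2 values, 0.027 centred by G and C content and -0.053 to 0.0099 leaving out each pool. *Ehmt1*Δ/+ minus wild type in neurons was 0.012 for *Wiz* median-centred, and 0.028 for *Ehmt2* and 0.033 for *Wiz* centred by G and C content; leaving out each pool it ran from -0.79 to 0.63 for *Ehmt2*, from -0.66 to 0.57 for *Wiz*, from -0.56 to 0.63 for *Zfp644* and from -0.25 to 0.48 for *Cdyl*. Leaving out 1 of these 4 pools leaves a genotype with 1 pool, assumed to vary like the rest. The Δ term of *Wiz* over 6 pools was 0.013 centred by G and C content, and the iTg term of *Zfp644* was -0.10 to 0.52 leaving out each pool, lowest without *Ehmt1*Δ/+; iTg. The cause was not tested.

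*Ehmt1* itself kept its direction under every setting run, at 0.68 to 0.79 in *Ehmt1*Δ/+ against wild type and 0.62 to 0.78 for the Δ term over 6 pools, and passed in none. The number of gene pairs with the same order in every pool was 22, and 22 to 26 leaving out each pool; 5 pools cannot give an exact p below 0.0625. No paired analysis was possible because the replicate numbers, by which samples could be paired across groups, only name nuclei within a pool; the blocks used above are the pool and the plate format.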

Other observations

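Genes near *Ehmt1* were read for its order of pools. Of 57 genes with a start within 500 kb of that of *Ehmt1*, 37 were tested in neurons. Of these, 1 (*Gm38383*) had all 3 Δ/+ pools above the 3 others and 1 (*Dph7*) all 3 below. Over all 24413 genes tested in neurons, 426 (1.74%) were above and 517 below in this way. With 37 genes, a count of 1 is close to these shares and is no result about the neighbours. The Δ terms of the 37 ran from -0.40 (*Rnf208*) to 0.60 (*Gm38147*) on the log2 scale with a median of -0.06. The neighbours *Arrdc1* (-0.05), *Zmynd19* (-0.01) and *Cacna1b* (0.03), named after their values were seen, lay near 0. The unclassified genes annotated inside *Ehmt1* moved with plate format: *Gm38147* was at 11.3 and 13.3 RPKM in 96-well neurons and at 1.78 to 5.28 RPKM in 384-well neurons. *Gm38147* was also higher in the Δ/+ pool of each pair, at 1.93 against 1.85 RPKM and 5.28 against 1.78 RPKM in the 384-well pairs. Its Δ term of 0.60 did not pass (SE 0.32, adjusted limma p = 0.796).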
